A study of Homo sapiens with 6 samples.

Results

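Epithelial-mesenchymal transition (EMT) markers and factors were followed at the transcript level in CAL-27 cells with and without a knockdown of XBP-1s. The members were 10 genes named by symbol, 3 classical cadherins (CDH1, CDH2 and CDH3), 2 mesenchymal markers (VIM and FN1) and 5 EMT transcription factors (SNAI1, SNAI2, ZEB1, ZEB2 and TWIST1). All 10 were found among the 19740 genes that could be named on the array, and they were read by 14 of the 34127 probes. The rule that picked them names symbols and sets no threshold on a measured value.

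The human line CAL-27 is long established and comes from a squamous carcinoma of the tongue. Stably transduced cells carried either a short hairpin RNA that targets XBP-1s (named shXBP-1s, n = 3) or a negative control hairpin (named shCtrl, n = 3), and the labels give no other treatment. XBP-1s is the transcription factor made from spliced XBP1 mRNA by the IRE1α branch of the unfolded protein response. RNA of each sample was hybridised to 1 single-colour Agilent array, and every value in the text comes from this 1 cell line in culture. The labels do not say whether the 3 samples of a group came from separate cultures or separate transductions, so the p-values measure only the spread between these samples. The labels describe a NimbleGen labelling procedure, whereas the scanner files are those of an Agilent array.

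EMT is the process in which epithelial cells loosen their adherens junctions and take on features of mesenchymal cells. E-cadherin, the product of CDH1, holds neighbouring epithelial cells together, and the SNAI, ZEB and TWIST factors are known to repress CDH1, in the case of SNAI and ZEB proteins by binding E-boxes in its promoter. In squamous carcinomas EMT is often incomplete, with matrix and protease genes expressed by cells that keep their epithelial junctions and keratins.

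The signal of a spot was its brightness after background subtraction by the scanner software, and the level of a probe was the log2 of that signal minus the 75th percentile of the array, so that 0 is the 75th percentile. Levels are not compared between probes, because probes differ in how strongly they hybridise. That percentile lay between 687.4 and 761.3 units on the shCtrl arrays and between 792.0 and 983.4 units on the shXBP-1s arrays. Spots well above background made up 82.1% to 84.8% of an array, and no spot was saturated. The scanner files give 2 scan times, here scan 1 for shCtrl 2 and shCtrl 3 and scan 2 for shCtrl 1 with all 3 shXBP-1s arrays. Each difference of a member is therefore also given within scan 2, where shCtrl is 1 array. The tested genes named below from the lists kept their sign within scan 2, except for the brighter CTNNB1 probe and the dimmer GRHL2 probe. Both of these had differences near 0. The genes looked up as most like CDH1 or VIM are not given within scan 2. XBP1 itself, read by a probe that does not separate the spliced from the unspliced form, had a level of 1.88, 1.85 and 1.87 on the shCtrl arrays and of -0.50, -0.54 and -0.52 on the shXBP-1s arrays, a log2 fold change of -2.39 ± 0.04 (SE, limma adjusted p = 2.81e-07), and of -2.40 within scan 2.

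Epithelial markers were checked against the label. All 9 squamous epithelial markers examined (KRT5, KRT14, KRT8, KRT18, KRT19, TP63, SFN, EPCAM and CDH1) were well above background on all 6 arrays. Of 9 fibroblast markers, 6 were above background on all 6 arrays (COL1A1, COL1A2, DCN, FAP, LUM and PDGFRB), and COL3A1 and THY1 were below it on every array. The summed signal of the fibroblast list, in units of the 75th percentile, was 0.995 to 1.08 in shCtrl and 0.729 to 0.744 in shXBP-1s, although 4 of its genes rose singly, as given further on. Most of the shCtrl sum came from PDGFRB, with levels of -0.54, -0.35 and -0.40 in shCtrl and -1.62, -1.66 and -1.83 in shXBP-1s. The lower sum is therefore mainly a reading of that 1 probe and not of the list. The sum of the squamous list was 155 to 166 in shCtrl and 163 to 189 in shXBP-1s.

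SNAI2 was the only member that changed at least 2-fold, and it rose. CDH3 rose by a smaller amount, SNAI1, TWIST1 and FN1 fell, and CDH1 and VIM showed no difference that passed the test. The 14 member probes were all well above background on all 6 arrays and all were tested with limma. With an adjusted p below 0.05 plus a minimum of 2-fold, 1 of the 14 passed, the SNAI2 probe, where 4.9% of the 27624 tested probes passed in either direction and 2.29% passed as higher. At an adjusted p below 0.05 with no minimum fold, 10 of the 14 passed, where 41.7% of all tested probes passed. Of those 10 member probes 6 were higher in shXBP-1s (18.4% of all tested probes) and 4 were lower (23.3%). The 3 shXBP-1s arrays did not overlap the 3 shCtrl arrays for 10 of the 14, and 52.4% of all tested probes had groups apart. The median log2 fold change of the 14 probes was 0.17, and that of all tested probes was -0.02. By gene, every probe passed for 6 members, no probe passed for CDH1 and VIM, and only 1 of 2 probes passed for CDH2 and ZEB1. With normexp, a model-based background correction run as an alternative, 3 of the 14 passed the adjusted p, those of CDH3, SNAI1 and SNAI2. Of all 27624 tested probes 4507 passed under that setting, against 11516 as reported. The normexp SE was 0.20 for CDH1 and 0.68 for FN1, against 0.07 and 0.11 as reported. SNAI2 had a limma adjusted p of 4.19e-38 there, too small to come from the spread of 6 arrays alone. Passing or failing with normexp is therefore not a measure of the spread of a given probe between its arrays.

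**Figure D1:**
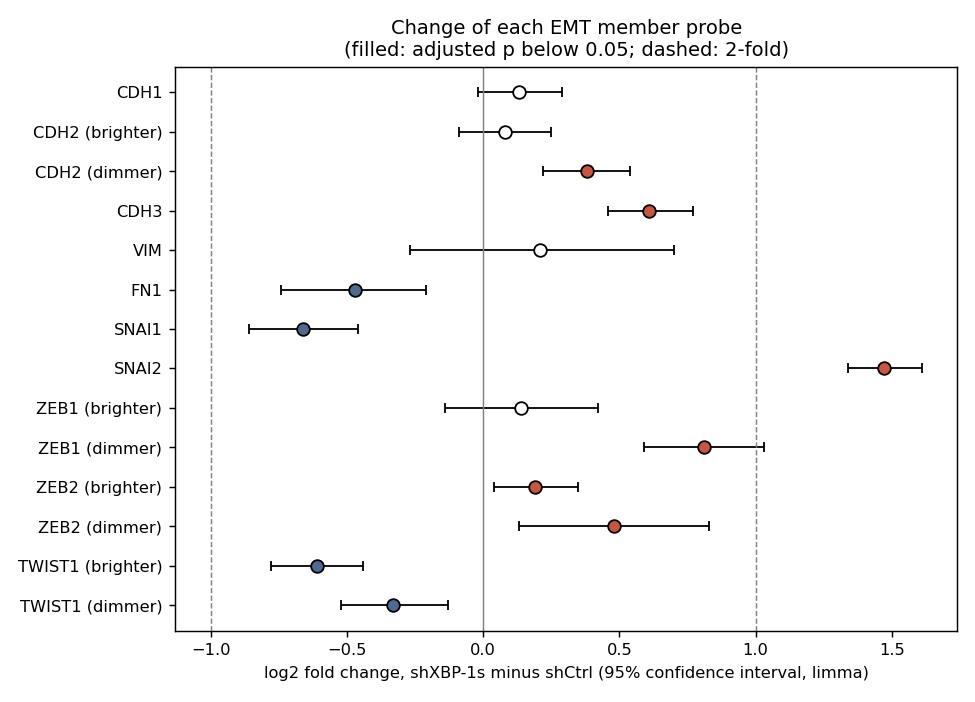
Log2 fold change (shXBP-1s minus shCtrl, x axis) of each of the 14 member probes, with the 95% confidence interval from limma, 3 arrays per group, where filled points have an adjusted p below 0.05 and dashed lines mark 2-fold. Only SNAI2, at 1.47, lies beyond a dashed line, and the intervals of CDH1, VIM and the brighter probes of CDH2 and ZEB1 hold 0.

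The classical cadherins differed among themselves. CDH1, which encodes E-cadherin, had a level of 4.92, 4.78 and 4.89 on the shCtrl arrays and of 4.90, 5.0 and 5.09 on the shXBP-1s arrays. The groups overlapped, since shXBP-1s 1 lay inside the shCtrl range. The log2 fold change was 0.13 ± 0.07 (SE), with a 95% confidence interval from -0.02 to 0.29 and an adjusted p of 0.143. A fall of CDH1 larger than 0.02 on the log2 scale lies outside that interval, which comes from a fit without a term for the scan. Within scan 2 the difference was 0.08. After quantile normalization the value was 0.24, with an adjusted p of 0.00357, and with the authors' own log2 values it was 0.22, with an adjusted p of 0.00792, so on those scales CDH1 passed as higher.

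CDH3 encodes P-cadherin, the cadherin of basal cells in stratified epithelia. Its level was 3.38, 3.12 and 3.27 on the shCtrl arrays and 3.86, 3.87 and 3.88 on the shXBP-1s arrays. All 3 shXBP-1s arrays lay above all 3 shCtrl arrays and almost on one value. CDH3 rose 1.53-fold, a log2 fold change of 0.61 ± 0.07 (SE, limma adjusted p = 0.000186), and by 0.49 within scan 2. Its change exceeded that of CDH1 by 0.48 on the log2 scale, with a two-sided exact permutation p of 0.1, the smallest that 3 arrays against 3 allow.

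CDH2 encodes N-cadherin, the cadherin of neural and many mesenchymal cells, and its 2 probes gave different results. The brighter probe read 0.01, 0.15 and 0.11 on the shCtrl arrays and 0.05, 0.15 and 0.32 on the shXBP-1s arrays. These ranges overlapped, and the difference of 0.08 ± 0.08 (SE, 95% confidence interval -0.09 to 0.25) did not pass, with a limma adjusted p of 0.432. The dimmer probe read -1.77, -1.61 and -1.59 in shCtrl and -1.31, -1.20 and -1.33 in shXBP-1s. Its groups were apart, and it rose by 0.38 ± 0.07 (SE, limma adjusted p = 0.00283), or by 0.50 within scan 2. With normexp it differed by 0.09 and did not pass (adjusted p = 0.686). With quantile normalization after normexp it rose by 0.27 and passed (limma adjusted p = 0.00302). The change of the brighter probe minus that of the dimmer was -0.30 (exact permutation p = 0.1, two-sided, the smallest possible here). In the cadherin switch of a full EMT, CDH1 is lost as CDH2 is gained. Here CDH1 lay between 0.08 and 0.28 above shCtrl over the alternatives. The brighter CDH2 probe lay between 0.01 and 0.16 above it, and the dimmer CDH2 probe between 0.09 and 0.50.

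The mesenchymal markers moved differently from each other. VIM encodes the intermediate filament vimentin, and its levels were -1.51, -2.03 and -2.39 in shCtrl and -1.72, -2.0 and -1.57 in shXBP-1s. The highest and the lowest of the 6 values were both shCtrl arrays, and no other member probe had so wide a control range. The difference of 0.21 ± 0.21 (SE, 95% confidence interval -0.27 to 0.70) did not pass, with a limma adjusted p of 0.46. Array shCtrl 1 of scan 2 was 0.70 above the mean of the scan 1 controls, and within scan 2 the difference turned to -0.25. Leaving out shCtrl 1 gave 0.44 and an adjusted p of 0.0425, so the sign and the call for VIM rest on that array. VIM was the only one of the 14 member probes whose sign turned within scan 2.

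FN1 encodes fibronectin, a glycoprotein of the extracellular matrix. Its levels were -4.31, -4.50 and -4.37 in shCtrl and -5.03, -4.78 and -4.78 in shXBP-1s. The groups were apart, with the shXBP-1s arrays lower. FN1 fell by 0.47 on the log2 scale (SE 0.11, limma adjusted p = 0.012), and within scan 2 the difference was -0.56. The signals behind these levels were dim, at 34.7, 33.7 and 36.6 units in shCtrl and 30.1, 32.6 and 28.9 units in shXBP-1s. With normexp the difference was -0.88 and did not pass (adjusted p = 0.451). With quantile normalization after it the difference shrank to -0.12 and passed (limma adjusted p = 0.0337).

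**Figure D2:**
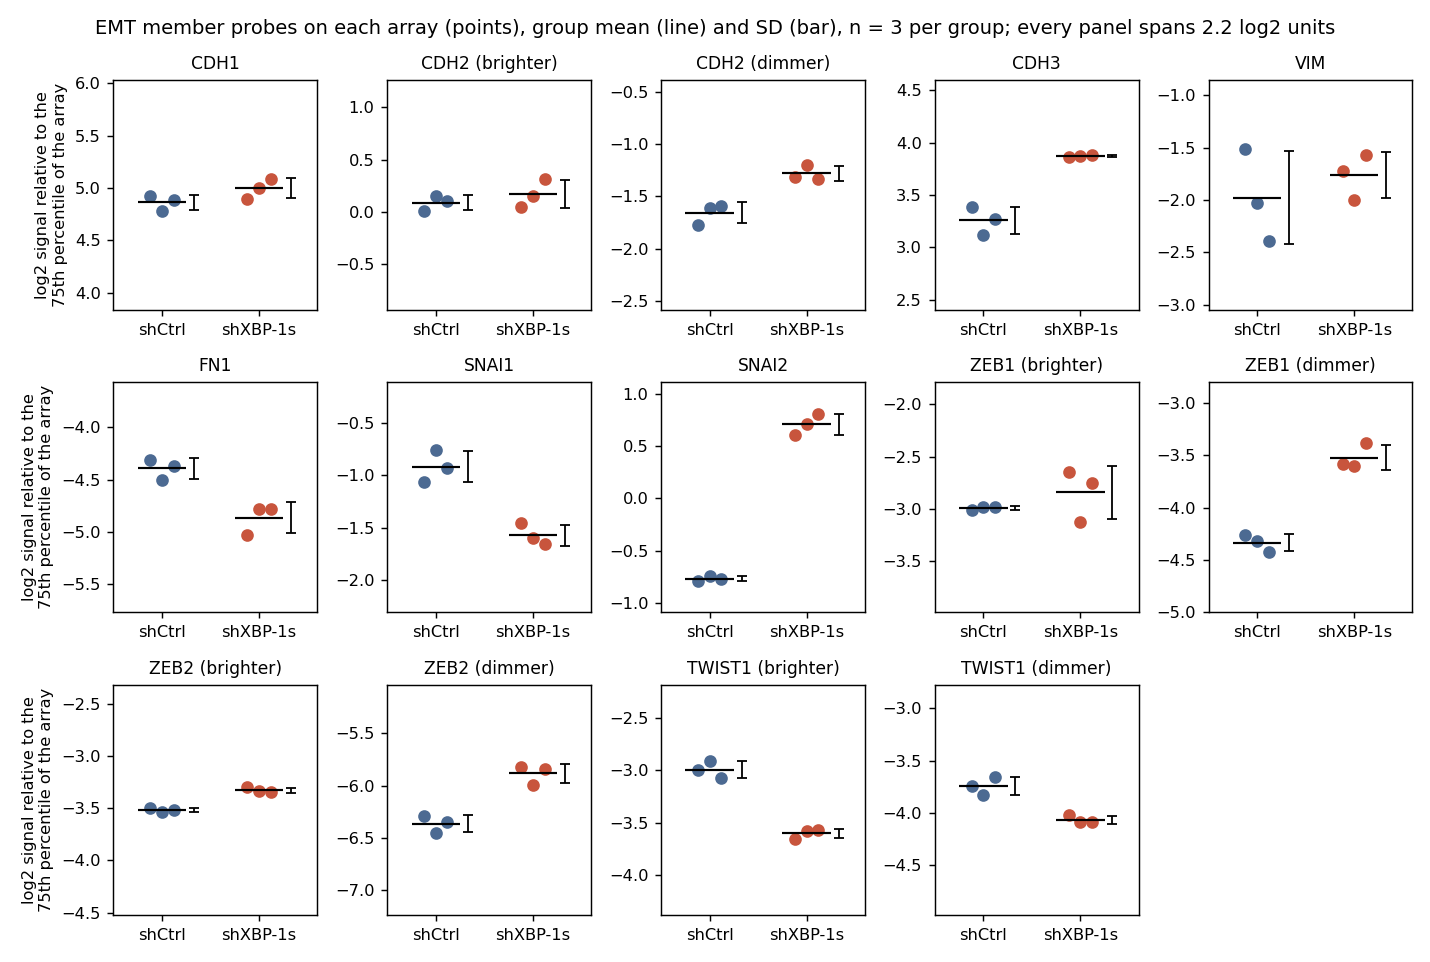
Level of each member probe (y axis, log2 signal relative to the 75th percentile of the array) on the 3 shCtrl and the 3 shXBP-1s arrays, with the group mean as a line and the SD as a bar beside it, every panel spanning 2.2 log2 units. The SNAI2 groups are far apart, SNAI1 and TWIST1 lie lower in shXBP-1s, and the VIM controls run from -2.39 to -1.51 and enclose all shXBP-1s arrays.

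The transcription factors split by direction, and the SNAI paralogs were the clearest case. SNAI2 encodes SLUG, a zinc finger repressor that is also expressed in basal keratinocytes. Its levels were -0.79, -0.74 and -0.77 in shCtrl and 0.61, 0.71 and 0.81 in shXBP-1s, from signals of 398.8, 456.1 and 442.4 units and of 1505.1, 1458.6 and 1384.5 units. The gap between the groups was many times the spread within either. SNAI2 rose 2.78-fold, a log2 fold change of 1.47 ± 0.06 (SE, 95% confidence interval 1.34 to 1.61, limma adjusted p = 2.28e-06). It rose by 1.49 within scan 2, and it passed at 2-fold under all 19 alternative settings, with values from 1.36 to 1.52.

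SNAI1 encodes SNAIL, the paralog best known as a direct repressor of CDH1. Its levels were -1.06, -0.76 and -0.93 in shCtrl and -1.46, -1.60 and -1.66 in shXBP-1s. Every shXBP-1s array was below every shCtrl array. SNAI1 fell by 0.66 on the log2 scale, a 1.58-fold difference (SE 0.09, limma adjusted p = 0.00055), and the difference within scan 2 was -0.52. The change of SNAI2 minus that of SNAI1 was 2.13, and the level of SNAI2 minus that of SNAI1 in the same array ran from 0.02 to 0.27 in shCtrl and from 2.08 to 2.47 in shXBP-1s (exact permutation p = 0.1, two-sided). That difference within an array does not depend on the scaling of the array, and its absolute size has no meaning between 2 probes.

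TWIST1, a basic helix-loop-helix factor of the early mesoderm and neural crest, fell by both of its probes. The brighter probe read -3.0, -2.91 and -3.07 in shCtrl and -3.65, -3.58 and -3.57 in shXBP-1s. Its groups were apart, and it fell by 0.61 (SE 0.07, limma adjusted p = 0.000338), with the same value of -0.61 within scan 2. The dimmer probe read -3.74, -3.83 and -3.66 in shCtrl and -4.02, -4.09 and -4.09 in shXBP-1s and fell by 0.33 (SE 0.08, limma adjusted p = 0.0144), again with -0.33 within scan 2. With normexp both probes stayed lower and neither passed. With quantile normalization after normexp the brighter probe was at -0.33 and the dimmer at -0.11. Both then passed (limma adjusted p = 0.00071 and 0.0453). The dimmer probe also lost its adjusted p below 0.05 with the scan as a block, without shCtrl 3 and without shXBP-1s 2.

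ZEB1 and ZEB2 encode 2-handed zinc finger factors that bind E-boxes and are restrained by the miR-200 family. The brighter ZEB1 probe read -3.01, -2.98 and -2.98 in shCtrl and -2.65, -3.13 and -2.75 in shXBP-1s. Array shXBP-1s 2 lay below all controls and the other shXBP-1s arrays above them, and the difference of 0.14 ± 0.12 (SE, 95% confidence interval -0.14 to 0.42) did not pass (limma adjusted p = 0.384). Without shXBP-1s 2 it was 0.29, with an adjusted p of 0.0371. The dimmer ZEB1 probe read -4.26, -4.32 and -4.42 in shCtrl and -3.58, -3.60 and -3.38 in shXBP-1s. Its groups were apart, and it rose 1.76-fold, by 0.81 ± 0.09 on the log2 scale (SE, limma adjusted p = 0.000279), from signals between 35.3 and 38.2 units to between 73.9 and 82.4 units. Within scan 2 the differences were 0.16 for the brighter and 0.74 for the dimmer probe. The changes of the 2 ZEB1 probes differed by -0.67, the largest gap between probes of a member with 2 (exact permutation p = 0.1, two-sided).

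For ZEB2 the brighter probe read -3.50, -3.54 and -3.52 in shCtrl and -3.30, -3.34 and -3.35 in shXBP-1s. The dimmer probe read -6.29, -6.45 and -6.35 in shCtrl and -5.82, -5.99 and -5.84 in shXBP-1s, from signals no higher than 17.4 units. Both probes had groups apart and were higher in shXBP-1s, by 0.19 ± 0.07 (SE, limma adjusted p = 0.0493) and by 0.48 ± 0.15 (SE, limma adjusted p = 0.0358). Within scan 2 the differences were 0.18 and 0.41. Both lost an adjusted p below 0.05 with the scan as a block (0.198 and 0.185) and with the replicate number as a block (0.119 and 0.0836). The brighter probe also lost it without any 1 of the 6 arrays, and the dimmer without any 1 of 5, shCtrl 1 being the exception. The ZEB values moved with the background correction. With normexp the median of all tested probes itself moved to -0.41, and all 4 ZEB probes turned lower, by -0.38 and -0.25 for ZEB1 and -0.40 and -0.82 for ZEB2. With quantile normalization after normexp, that median was 0 and all 4 were again above 0.

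**Figure D3:**
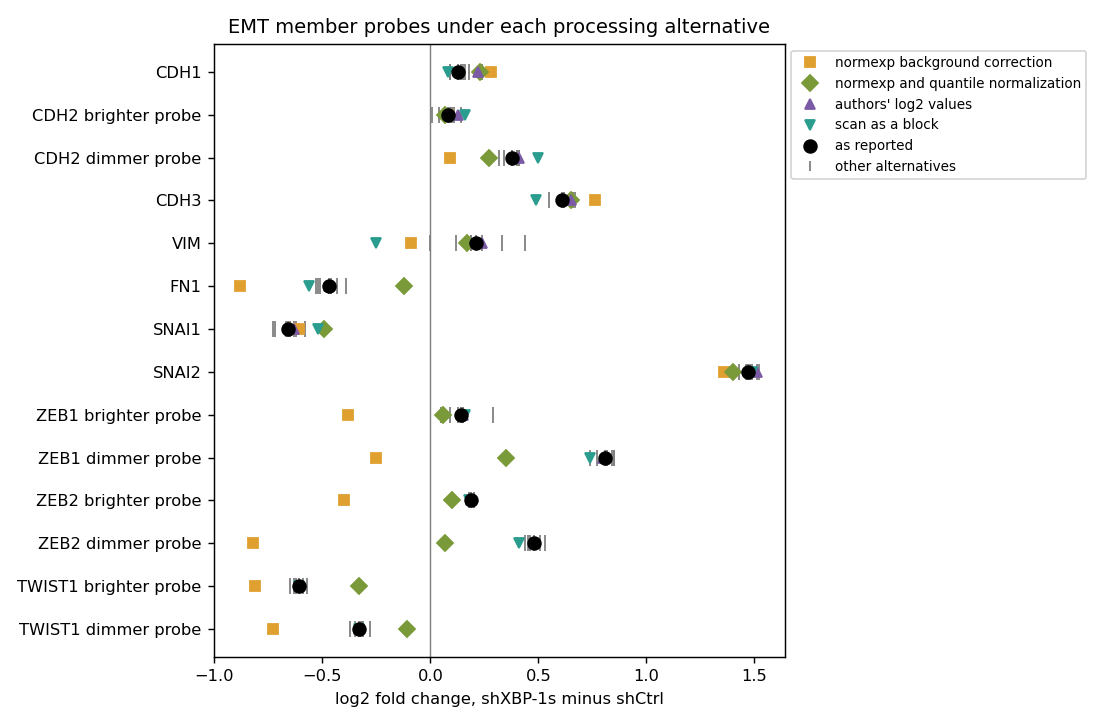
Log2 fold change of each member probe (x axis) as reported (black circle) and under each of the 19 alternatives, with 4 of them marked by their own symbols and the others as grey ticks. SNAI2 stays between 1.36 and 1.52, the ZEB probes and VIM cross 0 under normexp alone, and VIM also crosses 0 with the scan as a block.

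The starts of the ZEB genes are shown because they hold letters known from the factors compared here. Searched for were the E-box type bound by SNAI and ZEB proteins (CAGGTG, or CACCTG on the other strand) and the ACGTG core of the element bound by XBP-1s (ACGTG, or CACGT on the other strand). RefSeq promoters of GRCh38.p14 were at hand for 5 of the 10 members (CDH2, VIM, FN1, ZEB1 and ZEB2), with 12 starts in all, and the 250 bases before each start were searched on both strands. The matches are in capitals, each sequence runs 5′ to 3′ on the strand of the gene, and the last base is the one before the transcript start.
ZEB1, chr10:31318167-31318416, plus strand: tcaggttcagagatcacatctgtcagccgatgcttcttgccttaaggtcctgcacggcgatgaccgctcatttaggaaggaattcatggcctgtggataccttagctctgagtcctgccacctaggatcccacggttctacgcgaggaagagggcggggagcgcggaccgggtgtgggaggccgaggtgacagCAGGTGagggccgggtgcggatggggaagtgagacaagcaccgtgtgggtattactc
ZEB2, chr2:144520120-144520369, minus strand: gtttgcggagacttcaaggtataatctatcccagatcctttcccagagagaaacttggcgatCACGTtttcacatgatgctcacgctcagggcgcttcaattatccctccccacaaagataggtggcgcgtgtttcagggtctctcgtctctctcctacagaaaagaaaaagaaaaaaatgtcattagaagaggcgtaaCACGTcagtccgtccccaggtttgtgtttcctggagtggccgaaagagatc

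The ZEB1 sequence holds 1 E-box, 57 bases before the start, and the ZEB2 sequence holds 2 ACGTG cores, 188 and 51 bases before its start. Among 35116 promoters of the same length 17.5% held an E-box of this type and 18.5% held the ACGTG core, so both are common. Those shares are per promoter, whereas ZEB1 has several starts and the window shown was picked for holding a match. Of the other ZEB1 starts, 1 held 2 E-boxes, 1 held 2 ACGTG cores and the rest held neither. The windows before the starts of CDH2, VIM and FN1 held neither set of letters. A match is only a description of the letters, and binding was not measured on these arrays.

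Partners of the cadherins moved both ways by less than 2-fold. A list of 10 genes of the adherens junction was read by the brightest tested probe of each gene, as were the lists that follow. By that measure 5 rose and 3 fell at an adjusted p below 0.05, where 18.9% of 16821 genes were higher and 27.5% lower, and none passed at 2-fold, where 2.3% of genes passed as higher and 2.88% as lower. The list median was 0.19, and that of all genes was -0.04. NECTIN1 and NECTIN2, which encode immunoglobulin-like adhesion molecules of the same junctions, moved furthest and were picked out after their values were seen. NECTIN1 rose by 0.77 ± 0.07 (SE, limma adjusted p = 5.95e-05), and NECTIN2 fell by 0.62 (SE 0.06, limma adjusted p = 0.000102), while its dimmer probe gave 0.15 (adjusted p = 0.118). JUP, which encodes plakoglobin, a catenin of both adherens junctions and desmosomes, rose by 0.35 ± 0.04 (SE, limma adjusted p = 0.000401). CTNNB1, the gene of β-catenin, had a difference of 0.01 ± 0.05 (SE, limma adjusted p = 0.853), and its dimmer probe gave 0.40. CTNNA1 and CTNND1, which encode α-catenin and p120-catenin, fell by 0.19 and 0.24, while their dimmer probes gave 0.06 and 0.34. Of 19 other cadherins 11 were tested, of which 1 rose and 2 fell at an adjusted p below 0.05, all by less than 2-fold.

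Among regulators of the epithelial state 1 gene fell by at least 2-fold and none rose, where 2.88% and 2.3% of all genes did. Of 23 tested, 5 rose and 5 fell at an adjusted p below 0.05, where 18.9% of all genes were higher and 27.5% lower, so these counts are near those of all genes. The list median was -0.01. That gene was ELF3, an ETS factor of epithelial differentiation, with levels of 0.89, 0.75 and 0.76 in shCtrl and -0.34, -0.44 and -0.63 in shXBP-1s. ELF3 fell by 1.27 on the log2 scale (SE 0.08, limma adjusted p = 1.18e-05). EPCAM, an epithelial adhesion molecule, differed by 0.01 ± 0.06 (SE, limma adjusted p = 0.881), and after quantile normalization by 0.13 (adjusted p = 0.0171). ESRP1, a splicing factor that maintains epithelial isoforms, rose by 0.39 ± 0.09 (SE, limma adjusted p = 0.00844). GRHL2, a grainyhead factor that opposes EMT, differed by -0.07 and -0.05 by its 2 probes, and neither passed.

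Other EMT transcription factors moved both ways, as the members did. Of 19 listed genes 18 were matched to the array and 15 were tested. By adjusted p alone 5 rose and 5 fell, where 18.9% of all genes were higher and 27.5% lower. The 2-fold rule was passed by 2 that rose and 2 that fell, where 2.3% of all genes passed as higher and 2.88% as lower. The list median was 0.07 and ranged from -0.10 to 0.11 over the alternatives. With normexp none passed at 2-fold, and with quantile normalization after it 1 rose and none fell. SOX4 and SOX9, both SOX family factors linked to EMT programmes, rose by 1.40 ± 0.09 (SE, limma adjusted p = 1.12e-05) and 1.23 ± 0.08 (SE, limma adjusted p = 1.06e-05). With normexp they were below 2-fold, at 0.93 and 0.67. SNAI3, the third SNAI paralog, fell by 1.08 (SE 0.09, limma adjusted p = 4.38e-05), with levels of -3.37, -3.25 and -3.30 in shCtrl and -4.29, -4.36 and -4.49 in shXBP-1s. SNAI2 was thus the one SNAI paralog that rose, and SNAI1 and SNAI3 fell, each with groups apart. SNAI3 did not pass the adjusted p with normexp, where its value was -1.07 (adjusted p = 0.204). With quantile normalization after normexp SNAI3 fell by only 0.47 and passed the adjusted p (limma adjusted p = 3.7e-05), below 2-fold. PRRX2, a homeobox factor, fell by 1.01 (SE 0.08) and sat at the edge of 2-fold, which it missed in 7 of 19 alternatives. HMGA2, a chromatin protein that induces SNAI genes in other cells, rose by 0.66, 0.87 and 1.17 by its 3 probes, of which the last passed at 2-fold.

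Corepressors and other modifiers of these factors fell more often than they rose, all by less than 2-fold. The list also holds GSK3B, BTRC, FBXL14 and FBXW7, which are neither corepressors nor chromatin modifiers. Of these, named after their values were seen, GSK3B rose by 0.86, and BTRC, FBXL14 and FBXW7 fell by 0.38, 0.46 and 0.42. Of 16 tested, 9 fell and 2 rose at an adjusted p below 0.05, where 27.5% and 18.9% of all genes did, and none passed at 2-fold. The list median was -0.24 and stayed between -0.27 and -0.16 over the alternatives. With normexp 4 fell and 2 rose at the adjusted p, a setting under which 4507 of all 27624 tested probes passed.

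Mesenchymal genes beyond VIM and FN1 moved in both directions. Of 20 tested, 10 fell and 5 rose at an adjusted p below 0.05, where 27.5% of all genes were lower and 18.9% higher. A further minimum of 2-fold left 3 lower and 2 higher, where it left 2.88% and 2.3% of all genes. The list median was -0.20, between -0.34 and -0.05 over the alternatives. With normexp 5 fell at the adjusted p and 1 at 2-fold. The genes that rose by at least 2-fold were TNC, the matrix glycoprotein tenascin C, by 1.70 ± 0.09 (SE, limma adjusted p = 6.66e-06), and COL5A1, a fibrillar collagen chain, by 1.56 and 1.99 by its 2 probes. TNC levels were 2.06, 1.76 and 1.96 in shCtrl and 3.76, 3.64 and 3.49 in shXBP-1s, with groups far apart. S100A4, a calcium-binding protein used as a fibroblast marker, fell by 1.40 (SE 0.13, limma adjusted p = 9.35e-05). CALD1, the actin-binding caldesmon, fell by 1.03 and missed 2-fold in 5 of 19 alternatives, and FBLN1, the matrix protein fibulin, fell by 1.09 by its brightest probe, while its other probes gave -0.68 and -0.25.

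Genes of the partial EMT programme of head and neck carcinoma mostly rose. This programme names matrix, integrin and protease genes that squamous carcinoma cells express while they keep epithelial markers, and the list of 20 was written from general knowledge of it, with earlier results of these data known, so its counts are a description and no independent evidence of a direction. Of the 20, 16 rose and 2 fell at an adjusted p below 0.05, where 18.9% of all genes were higher and 27.5% lower. By at least 2-fold 8 rose and none fell, where 2.3% of all genes passed as higher and 2.88% as lower. The list median was 0.86 and lay between 0.54 and 0.94 over the alternatives. INHBA, which encodes the activin A subunit, had levels of 2.41, 1.84 and 2.11 in shCtrl and 4.58, 4.71 and 4.87 in shXBP-1s. It rose by 2.60 ± 0.14 (SE, limma adjusted p = 6.29e-06). SEMA3C, a secreted semaphorin, rose by 1.90, and PTHLH, the parathyroid hormone-like hormone, rose by 1.48. PLAU, the urokinase plasminogen activator, rose by 0.96 by its brightest probe and by 1.74 by the dimmer one. The largest value in the list, 3.31, was that of the stromelysin gene MMP10, which was picked out after its value was seen. PDPN, podoplanin, and F3, tissue factor, were the 2 that fell, by 0.25 and 0.65, and were likewise named after their values were seen.

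**Figure D4:**
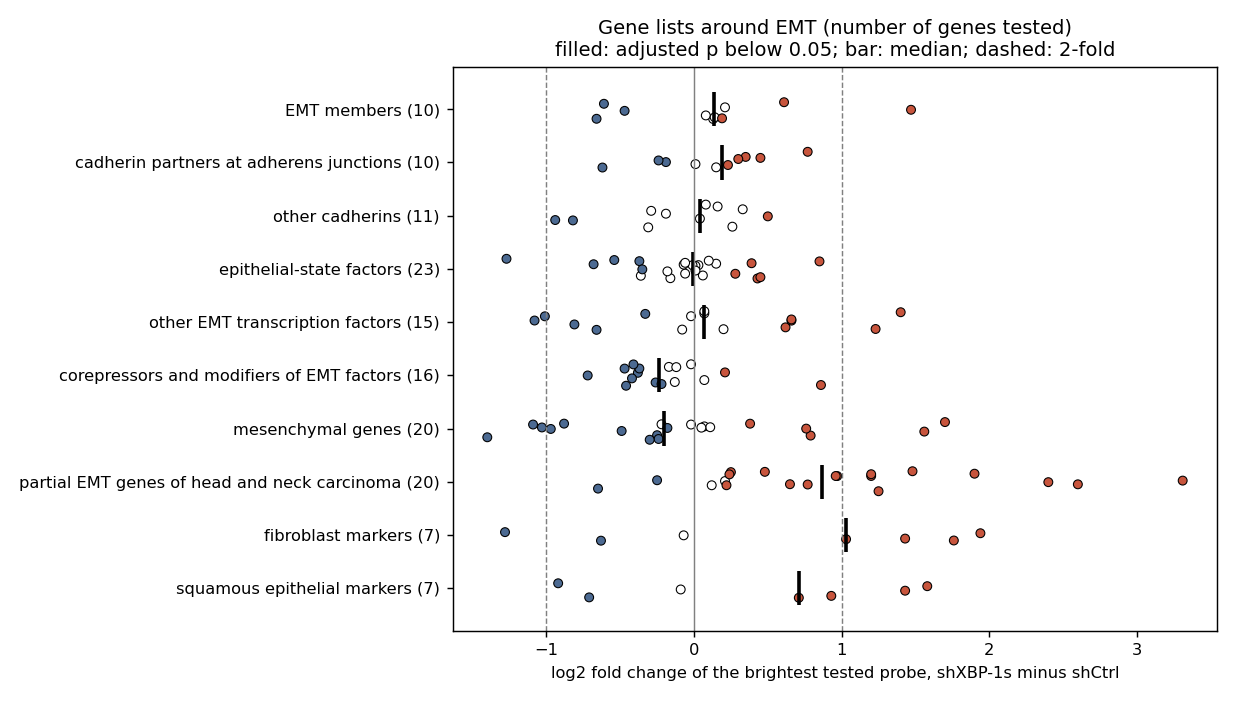
Log2 fold change (x axis) of the brightest tested probe of each gene in the members and in 9 lists around them, with the number of genes tested in brackets, filled points for an adjusted p below 0.05, a bar at each list's median and dashed lines at 2-fold. The partial EMT genes lie mostly to the right, with a median of 0.86. At an adjusted p below 0.05, 16 of 20 were higher, where 18.9% of all genes were. The members spread from -0.66 to 1.47.

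Markers of cell types moved beside these lists. Of the 7 squamous markers other than CDH1 and EPCAM, 4 rose and 2 fell at an adjusted p below 0.05. Over all genes 18.9% were higher and 27.5% lower by that rule. The basal keratins KRT5 and KRT14 rose by 1.43 ± 0.04 (SE, limma adjusted p = 1.09e-06) and 1.58 ± 0.07 (SE, limma adjusted p = 3.32e-06). The simple epithelial keratins KRT8 and KRT18, picked out after their values were seen, fell by 0.92 and 0.71. Of 7 fibroblast markers tested 4 rose and 2 fell at an adjusted p below 0.05. With a minimum of 2-fold 4 rose and 1 fell, where 2.3% of all genes passed as higher and 2.88% as lower. COL1A1, named after its value was seen, fell by 0.63 (limma adjusted p = 0.00239), which is less than 2-fold. PDGFRA entered the test through shXBP-1s, being above background on 1 of 3 shCtrl and 3 of 3 shXBP-1s arrays. Over the 6 genes above background on all arrays 3 rose and 1 fell by at least 2-fold, with a median of 0.68. LUM and DCN, small proteoglycans, rose by 1.94 and 1.43, FAP, a serine protease, by 1.76, and PDGFRA, a growth factor receptor, by 1.03, or by 0.49 within scan 2. Their signals were dim, with LUM at 25.4, 30.8 and 27.9 units in shCtrl and 133.2, 127.7 and 127.3 units in shXBP-1s. With normexp, which moved the median of all probes to -0.41, DCN was at -0.32, FAP at -0.38, PDGFRA at -0.84 and LUM at 0.34, and none of them passed. With quantile normalization after normexp DCN was at 0.43 and FAP at 0.42, LUM at 0.91 and PDGFRA at 0.08, and none passed at 2-fold. PDGFRB, a related receptor, fell by 1.28. The part of these markers in the member results was not tested.

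The genes whose arrays varied most like 2 of the members were looked up as a description only. The pattern of CDH1 over the 6 arrays, each gene centred on its own mean, was closest to that of OR1D5, ZBTB21 and FNBP1L among 16820 other genes, with root mean square differences of 0.020, 0.022 and 0.023 on the log2 scale. For VIM the closest were RBM12B-AS1, COL24A1 and BCL2L10, at 0.064, 0.096 and 0.097. Neither CDH1 nor VIM differed between the groups by the test.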

How the data were processed

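Gene expression of CAL-27 cells was measured on 6 1-colour Agilent arrays, 3 shXBP-1s and 3 shCtrl, grouped by the labels. The authors deposited the spot intensity of each array after background subtraction by Feature Extraction 11.0.1.1, not normalized between arrays. A deposited table of log2 values had a median of 6.269 on every array. How it was made is not given in the sources used here. It correlated at 0.9997 to 0.9999 with the scanner log2 signals and served as an alternative.

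The log2 signal minus the 75th percentile of the array was used. Between 230 and 377 outlier spots per array were dropped, and replicate spots were averaged per probe. A probe entered the test when over 50% of its spots were well above background on every array of either group. The limma package 3.58.1 (R 4.3.3; lmFit, then eBayes with a trend) gave 2-sided p-values, adjusted by Benjamini-Hochberg over 27624 probes. A call needed 2-fold or more together with an adjusted p below 0.05. RefSeq accessions gave the symbols, with 25771 of 34127 probes matched, and 19 probes had no value. A gene with several probes was represented by its brightest tested probe in lists. Precision is limited by having 3 arrays in each group, and no exact permutation p can fall below 0.1.

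The members and lists were chosen with earlier results of these data known. The text names every member probe, XBP1, up to 5 genes per list with a called probe by smallest p, and EPCAM, ESRP1, GRHL2, CTNNA1, CTNNB1, CTNND1 and JUP, with exceptions stated; 1 gene that this rule names is not reported here. Alternatives covered background correction, normalization, filters, the test, blocks and each array left out. Normexp ran on median spot signals (offset 50).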

Additional observations from a re-analysis of the deposited data

How the results depend on the processing

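The member probes passing at 2-fold stayed at 1, SNAI2, except that 10 passed with no minimum fold. Over all probes, 1354 passed as reported, 473 with normexp, 363 with normexp and quantile normalization, 11516 with no minimum fold and between 1274 and 1750 with 1 array left out. Under normexp VIM turned to -0.09, the ZEB1 probes to -0.38 and -0.25, the ZEB2 probes to -0.40 and -0.82, DCN to -0.32, FAP to -0.38 and PDGFRA to -0.84. The median of all probes was then -0.41, and with quantile normalization after normexp none of these was below 0. With the scan as a block VIM was -0.25 and CTNNB1 -0.01. With 1 array left out CTNNB1 ran from -0.01 to 0.04 and EPCAM from -0.04 to 0.07, both lowest without shXBP-1s replicate 3. At an adjusted p below 0.05 and no fold, 3 member probes passed with normexp, 7 with the scan as a block and between 7 and 10 with 1 array left out. The counts over all probes by that rule were 4507, 8692 and between 8632 and 12843, against 11516 as reported. Same-numbered samples correlated at -0.02, 0.12 and -0.12 in their deviations, so the numbers were not taken as pairs. With the replicate number as a block 1381 probes passed, 1 of them a member, and both ZEB2 probes lost an adjusted p below 0.05. Signal over background limits the dimmest probes, among them the dimmer ZEB2 probe, with signals of 17.4 units or less, and PDGFRA.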
